A study of Homo sapiens with 4 samples.

Results

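The genes described here build, cross-link, pull on and anchor the actin filaments of a cell. They comprise 47 genes, taken by gene symbol from a fixed list of actin isoforms and actin-binding, myosin, focal contact and membrane-linker genes, among 25737 genes of the deposited count table. All 47 symbols were found once each, none was without a read, and 37 passed the filter on low counts. RNA was sequenced in 4 libraries from cells that the labels call SKOV-3, an established human ovarian cancer line grown in serum-containing medium. Cells given rosmarinic acid methyl ester (RAME), the methyl ester of a plant phenol, at 40 µM for 24 h gave 2 libraries, and cells given the solvent DMSO gave the other 2. The study asked how RAME acts on ovarian cancer cells, among other things on their migration, which depends on actin.

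Actin exists as single molecules and as filaments, and cells move by growing branched filament networks at the front and by contracting bundled filaments behind. Profilin, cofilin and the thymosins control the pool of single molecules, the ARP2/3 complex starts branches, capping protein stops growth, and non-muscle myosin II pulls on filaments that tropomyosins coat. Vinculin, talin and zyxin tie the filaments to integrins at focal contacts, and ezrin, moesin and radixin tie them to the cell membrane.

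The RAME libraries held 1441575 and 1777782 reads in genes, and the DMSO libraries 2306379 and 2543566. The kit primes at the poly(A) tail, so a transcript gives about 1 read whatever its length, and levels of different genes were compared without scaling for length. Levels are given as CPM, the reads of a gene for every 1000000 reads in tested genes, after TMM scaling of the libraries. Replicates were not alike within counting error: over 40 members, chi-square divided by its degrees of freedom was 36.6 between the RAME libraries and 105.8 between the DMSO libraries. Over all genes it was 15.4 (5041 genes) and 28.8 (5416 genes). Those genes were not matched to the members in reads, on which this measure depends. Whether each library was made from its own culture is not stated, and the p-values therefore cover the spread of these 4 libraries alone, which may be technical. The defining markers of the labelled line were at or near 0. Of 12 genes of ovarian cancer and epithelial identity, 5 had no read in any library, namely KRT7, KRT19, EPCAM, MSLN and ERBB2, the receptor gene that this line is known to carry amplified. A count of 0 over all 4 libraries allows up to 0.372 CPM. KRT8 had 1 read and KRT18 had 4 reads over all libraries, and PAX8 was the only 1 of the 12 with 40 or more reads. MYL6 and FLNA, known as abundant in many cell types, were also nearly unread, with 49 and 43 reads over all libraries. Whether reads of some genes were lost in counting was not tested. What the marker counts say of the identity of the cells was not tested either, and the cells are called here by their label. Markers of smooth muscle and fibroblasts summed to 23 and 33 reads in the RAME libraries and to 52 and 73 in the DMSO libraries, and COL1A2 made up 14 and 12 of the RAME reads and 42 and 58 of the DMSO reads. Leukocyte and endothelial markers summed to 6 reads or fewer in any library.

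Few of the 37 tested members passed the test, about as many as among all genes. At an adjusted p under 0.05, from edgeR's quasi-likelihood test with Benjamini-Hochberg adjustment over 4517 genes, 5 members differed, or 13.5% of those tested, and the share over all genes tested was also 13.5%. The actin-nucleating subunit gene ACTR3, the profilin gene PFN1, the thymosin gene TMSB4X and the myosin light chain gene MYL12B were lower with RAME, against a background of 7.08% of genes lower. The membrane-linker gene EZR was higher, against a background of 6.46% higher. By upper quartile scaling 2 members were higher and 4 lower. Over all genes 292 were higher and 320 lower, with 381 and 261 by upper quartile scaling, which moved the median of all genes up by 0.11 on the log2 scale, and 255 and 389 by library size only. The median log2 fold change was 0.07 over the tested members and 0.01 over all genes tested, and the median size of the change without its sign was 0.65 and 0.63. At an unadjusted p under 0.05 there were 15 members, 5 higher and 10 lower, and 31.3% of all genes passed that mark. Both RAME libraries lay above both DMSO libraries for 13 members and below them for 13, and the shares over all genes were 31.2% and 29.5%, or 60.7% together. Log2 fold changes were above 0 for 19 tested members and below 0 for 18. FLNA is among those above, though it passed the filter on low counts only through its RAME libraries. These counts hold ACTG1 as higher, and if the reads of its pseudogene row ACTG1P20 were added to it, as described with the actins, 18 were above 0 and 19 below, 12 members lay above and 14 below without overlap, and 4 were higher and 11 lower at an unadjusted p under 0.05. Counts of this design were simulated over 4517 genes, of which 200 differed. The test recovered 8.96% of 2-fold changes, 73.1% of 4-fold changes and 98.5% of 8-fold changes. These are not rates for the members, because 612 genes were called in the data. The median SE was also 0.34 over the tested members, against 0.45 over all genes tested. EZR and TMSB4X passed at 2.37-fold and 2.33-fold, while VCL and PFN2 did not at 2.33-fold and 2.26-fold. A member that did not pass may therefore still differ by 2-fold.

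**Figure D1:**
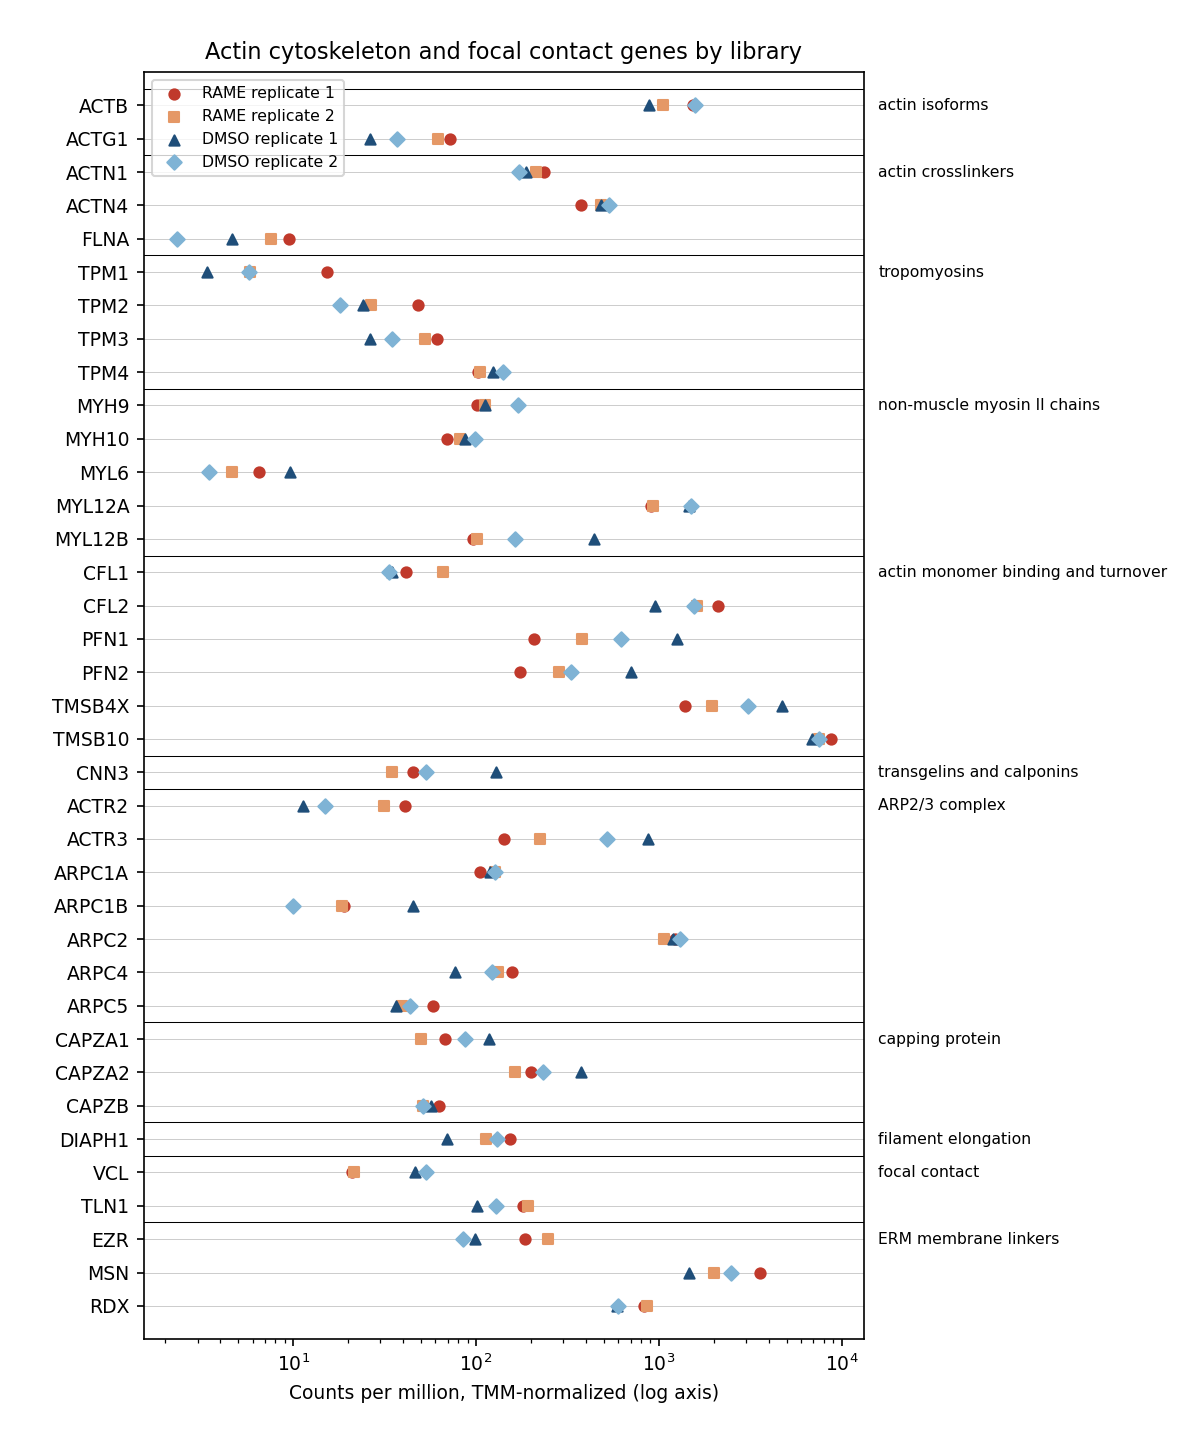
Level of each of the 37 tested members in each library, as TMM-normalized CPM on a log axis, grouped by role, with 1 marker per library. TMSB10 lies farthest to the right in all 4 libraries, and for ACTR3, PFN1, TMSB4X and MYL12B both RAME markers lie to the left of both DMSO markers.

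Reads of the module were concentrated in a few members. The members together took 2.24% and 1.98% of all reads in the RAME libraries and 2.46% and 2.42% in the DMSO libraries. TMSB10 alone held 32.9% of the members' reads and the 12 most-read members held 90.5%. Genes that are known as abundant in many cell types were nearly unread here: MYL6, the essential light chain of non-muscle myosin, had 8 to 23 reads a library, and FLNA, the filamin that links filaments into networks, had 6 to 13.

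Beta-actin, the protein used as the loading control of the study's immunoblots, is encoded by ACTB. ACTB had 2117 and 1808 reads in the RAME libraries, against 2111 and 4086 in the DMSO libraries, or 1538 and 1052 CPM against 887.2 and 1572 CPM. The groups overlapped, with the highest and the lowest value both in DMSO (log2 fold change 0.07 with a standard error, SE, of 0.33, adjusted p = 0.911, edgeR). Its sign turned with scaling by library size only, to −0.019. ACTG1, the gene of the second cytoplasmic actin, was read far less, with 71.9 and 61.7 CPM in the RAME libraries, against 26.5 and 36.9 CPM in the DMSO libraries. Both RAME values were above both DMSO values, but ACTG1 did not pass the test (log2 fold change 1.07, SE 0.38, adjusted p = 0.0773, edgeR). A row named as a pseudogene of ACTG1, ACTG1P20, held many more reads than ACTG1 itself, 619 and 1759 in the RAME libraries, against 5625 and 3233 in the DMSO libraries. In GENCODE 29 its transcript was 91.3% identical to ACTG1 over 470 aligned bases. If its reads were added to those of ACTG1, the log2 fold change of ACTG1 turned from 1.07 to −1.19 (adjusted p = 0.0663, edgeR). Which gene those reads came from was not tested, so the direction of ACTG1 is uncertain.

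Serum response factor (SRF), with its actin-sensing cofactors of the MRTF family, is known to switch on many actin genes through a short DNA element, the CArG box. SRF had 440 and 917 reads in the RAME libraries, against 1586 and 1791 in the DMSO libraries, and did not pass the test (log2 fold change −0.67, SE 0.31, adjusted p = 0.171, edgeR). The cofactor gene MKL2 had 86 and 79 reads in the RAME libraries, against 206 and 251 in the DMSO libraries (log2 fold change −0.76, SE 0.34, adjusted p = 0.149, edgeR), and MKL1 had no read in any library. Promoter windows of 250 bases before to 50 after the start were found for 42 members in the RefSeq table (GRCh38.p14). ACTB, MYL9, PFN2, TAGLN and ARPC1B had none there. A CArG box, searched by its consensus, which reads alike on both strands, was in 4 of the 42 windows and in 1.29% of all 35116 windows. The 6-letter TEAD motif GGAATG, searched on both strands, was in 6 of the 42 and in 14.03% of all windows. The 4 windows with a CArG box are shown because they carry the element through which SRF is known to act, with the box in capitals. They belong to ACTG1 (chr17:81512750-81513049, minus strand, box from −94 of the start), FLNA (chrX:154374585-154374884, minus strand, from −94), TPM4 (chr19:16067288-16067587, plus strand, from −173) and CNN2 (chr19:1026358-1026657, plus strand, from −89):
ACTG1: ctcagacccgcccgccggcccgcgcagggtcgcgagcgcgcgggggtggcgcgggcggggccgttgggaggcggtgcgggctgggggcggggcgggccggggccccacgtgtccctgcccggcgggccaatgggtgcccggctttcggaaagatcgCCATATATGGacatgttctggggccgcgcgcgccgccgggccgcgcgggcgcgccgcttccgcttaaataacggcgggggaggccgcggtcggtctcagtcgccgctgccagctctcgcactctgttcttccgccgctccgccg
FLNA: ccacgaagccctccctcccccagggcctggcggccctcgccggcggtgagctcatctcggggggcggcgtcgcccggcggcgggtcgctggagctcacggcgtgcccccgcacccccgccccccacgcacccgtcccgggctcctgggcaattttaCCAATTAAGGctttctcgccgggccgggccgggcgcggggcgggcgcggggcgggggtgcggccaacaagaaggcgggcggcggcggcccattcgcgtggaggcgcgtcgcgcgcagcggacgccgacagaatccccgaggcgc
TPM4: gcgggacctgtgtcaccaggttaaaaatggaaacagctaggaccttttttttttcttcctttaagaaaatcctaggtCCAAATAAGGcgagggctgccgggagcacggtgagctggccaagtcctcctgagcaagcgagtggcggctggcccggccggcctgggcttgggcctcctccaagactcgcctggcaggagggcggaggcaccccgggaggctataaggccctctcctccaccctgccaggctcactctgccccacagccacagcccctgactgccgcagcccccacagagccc
CNN2: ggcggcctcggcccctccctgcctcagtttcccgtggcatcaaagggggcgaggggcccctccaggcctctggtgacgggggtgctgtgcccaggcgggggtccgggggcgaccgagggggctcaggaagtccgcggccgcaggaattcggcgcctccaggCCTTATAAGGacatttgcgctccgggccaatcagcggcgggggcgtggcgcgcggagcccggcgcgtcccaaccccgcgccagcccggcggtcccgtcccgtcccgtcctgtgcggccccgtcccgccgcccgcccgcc

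Of the 4 genes with these boxes 3 were tested and none passed. FLNA had 9.44 and 7.56 CPM in the RAME libraries, against 4.62 and 2.31 CPM in the DMSO libraries (log2 fold change 1.28, SE 0.70, adjusted p = 0.236, edgeR). It passed the filter on low counts only through its RAME libraries, where it is high, so its sign is no evidence. TPM4 had 103.1 and 105.3 CPM in the RAME libraries, against 123.1 and 140.9 CPM in the DMSO libraries (log2 fold change −0.34, SE 0.30, adjusted p = 0.484, edgeR). CNN2, a calponin gene, had only 7 reads over both RAME libraries and 5 over both DMSO libraries. A match is a description of the letters and no measure of binding.

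Of the 6 tested genes that bind single actin molecules or return them to the pool, 2 were lower with RAME and none was higher. Over all genes tested the shares were 7.08% lower and 6.46% higher. PFN1 encodes profilin 1, which hands actin to growing filament ends. It had 287 and 651 reads in the RAME libraries, against 2973 and 1615 in the DMSO libraries, or 208.5 and 378.6 CPM against 1249.5 and 621.5 CPM. Its last 400 transcript bases matched the pseudogene PFN1P1 at 98.7% identity over 150 bases, so reads may be shared with it. The means were 293.6 ± 120.3 CPM with RAME and 935.5 ± 444.1 CPM with DMSO (SD, n = 2 each). All RAME values were below all DMSO values, a 3.18-fold lower level (log2 fold change −1.67, SE 0.40, adjusted p = 0.0236, edgeR), and the call was lost without DMSO replicate 1 (log2 fold change −1.08, adjusted p = 0.0873). PFN2, its paralogue, had 240 and 489 reads in the RAME libraries, against 1681 and 861 in the DMSO libraries, or 174.3 and 284.4 CPM against 706.5 and 331.3 CPM (log2 fold change −1.18, SE 0.40, adjusted p = 0.0718, edgeR). Its libraries stood in the same order as those of PFN1, but it did not pass the test in edgeR. DESeq2 called it lower (adjusted p = 0.0334), and its adjusted p in edgeR was 0.0042 without DMSO replicate 2 and 0.0123 without RAME replicate 2.

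The thymosins, small peptides that hold single actin molecules in reserve, gave 1 gene that was lower and 1 that did not pass the test. TMSB4X had 1904 and 3356 reads in the RAME libraries, against 11189 and 7957 in the DMSO libraries, or 1383 and 1952 CPM against 4703 and 3062 CPM. The means were 1667 ± 402.4 CPM with RAME and 3882 ± 1160 CPM with DMSO (SD, n = 2 each). TMSB4X was 2.33-fold lower with RAME (log2 fold change −1.22, SE 0.30, adjusted p = 0.0239, edgeR), and the groups did not overlap. The call was lost without DMSO replicate 1 (adjusted p = 0.116) and without RAME replicate 1 (adjusted p = 0.101), with the same sign. TMSB10, the most-read member, had 12072 and 12934 reads in the RAME libraries, against 16460 and 19631 in the DMSO libraries, or 8768 and 7523 CPM against 6918 and 7555 CPM (log2 fold change 0.17, SE 0.24, adjusted p = 0.677, edgeR). Its groups overlapped. Within each library the log2 ratio of TMSB4X over TMSB10 reads was −2.66 and −1.95 with RAME, against −0.56 and −1.30 with DMSO. With 2 libraries against 2, an exact two-sided permutation test cannot give a p under 0.333, so ratios between members are given as descriptions.

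Cofilin severs old filaments and returns their actin to the pool. CFL2, known as the muscle cofilin, was read far more than CFL1, the common non-muscle form. CFL2 had 2885 and 2767 reads in the RAME libraries, against 2280 and 4030 in the DMSO libraries, or 2095 and 1609 CPM against 958 and 1551 CPM (log2 fold change 0.56, SE 0.30, adjusted p = 0.231, edgeR). CFL1 had 41.4 and 65.7 CPM in the RAME libraries, against 34.9 and 33.5 CPM in the DMSO libraries (log2 fold change 0.65, SE 0.39, adjusted p = 0.287, edgeR). For both genes the RAME values lay above the DMSO values, and neither passed the test. The log2 ratio of CFL1 over CFL2 reads was −5.65 and −4.61 with RAME, against −4.77 and −5.53 with DMSO. CFL2 thus had more assigned reads in all 4 libraries, and whether the cells held more of its RNA was not tested.

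In the ARP2/3 complex, which starts new branches on existing filaments, 1 of the 2 actin-related subunits was lower and the other had a positive log2 fold change. ACTR3, the gene of ARP3, had 195 and 386 reads in the RAME libraries, against 2068 and 1359 in the DMSO libraries, or 141.6 and 224.5 CPM against 869.2 and 523.0 CPM. The means were 183.1 ± 58.6 CPM with RAME and 696.1 ± 244.8 CPM with DMSO (SD, n = 2 each). ACTR3 was 3.80-fold lower with RAME (log2 fold change −1.92, SE 0.36, adjusted p = 0.00981, edgeR) and kept its call under all 15 alternatives, leaving out any 1 library included. ACTR2, the gene of ARP2, had 40.7 and 31.4 CPM in the RAME libraries, against 11.3 and 15.01 CPM in the DMSO libraries (log2 fold change 1.44, SE 0.46, adjusted p = 0.0579, edgeR). Its groups did not overlap either, but it passed only by upper quartile scaling (adjusted p = 0.0465), without DMSO replicate 2 (adjusted p = 0.0472) and in a fit with the replicate numbers crossed. The log2 ratio of ACTR2 over ACTR3 reads was −1.79 and −2.83 with RAME, against −6.23 and −5.11 with DMSO. The difference of the means of this ratio, 3.36, was the largest among the 16 pairs of members compared, apart from the sparse pair of VASP and ENAH.

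The other tested subunits of the complex did not pass the test. ARPC2, a core subunit and by far the most-read gene of the complex, had 1677 and 1824 reads in the RAME libraries, against 2827 and 3392 in the DMSO libraries, or 1218 and 1061 CPM against 1188 and 1305 CPM (log2 fold change −0.13, SE 0.26, adjusted p = 0.775, edgeR). ARPC4, another core subunit gene, had 158.3 and 131.5 CPM with RAME, against 76.5 and 121.6 CPM with DMSO (log2 fold change 0.55). ARPC1A had a log2 fold change of −0.09, which turned to 0.022 by upper quartile scaling, and ARPC5 had 0.28. The size of each of these 4 changes was below 2-fold. ARPC1B had 26 and 32 reads in the RAME libraries, against 108 and 26 in the DMSO libraries, so its log2 fold change of −0.56 (SE 0.64) rested on DMSO replicate 1 and was 0.90 without it. ARPC3 had 1 read over both RAME libraries and 14 over both DMSO libraries, too few to be tested. Its ratio of CPM, RAME over DMSO, was 0.115, with a 95% exact counting interval of 0.0027 to 0.755. In bulk libraries fewer cells of a type and less RNA per cell cannot be told apart, for these genes and the others.

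**Figure D2:**
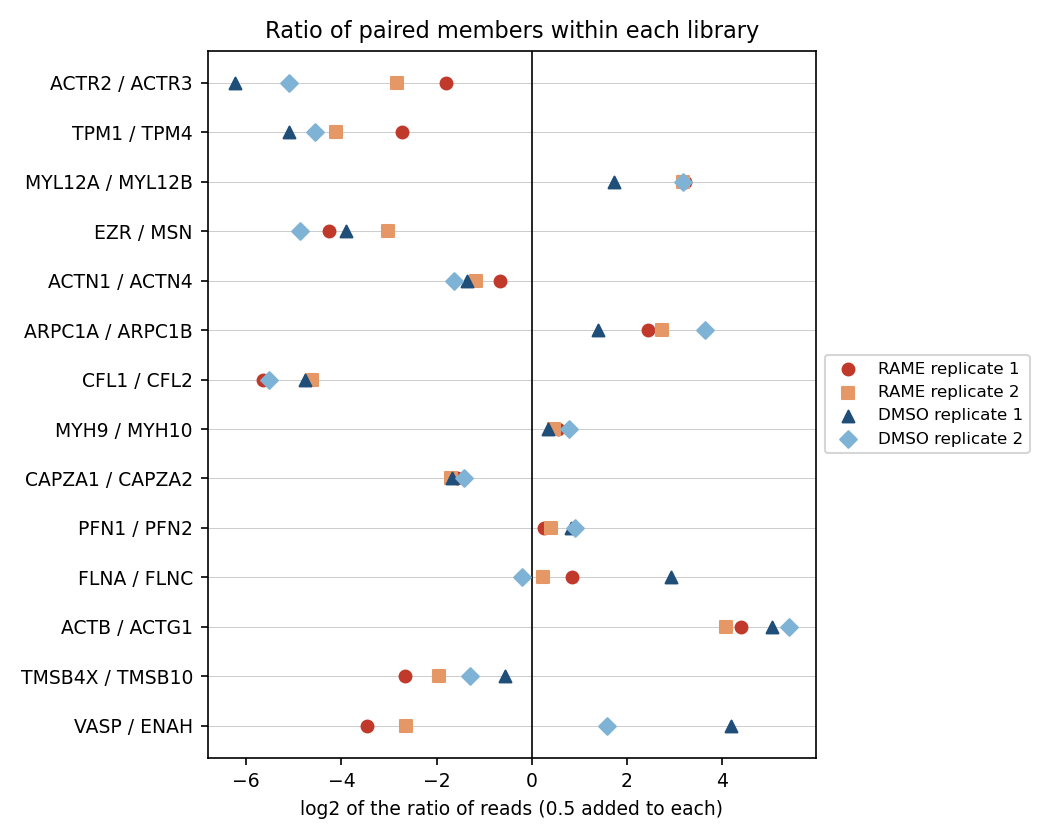
The log2 ratio of reads of 2 related members in each library, with 0.5 added to each count, for pairs whose lesser member had at least 20 reads in all. The ACTR2 to ACTR3 ratio lies higher in both RAME libraries, the TMSB4X to TMSB10 and VASP to ENAH ratios lie lower in both, and the MYL12A to MYL12B ratio stands apart in DMSO replicate 1.

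All 5 tested chains of non-muscle myosin II, the motor that contracts actin bundles, had log2 fold changes below 0, and 1 passed the test. The sign of the sparsely read MYL6 did not hold when single libraries were left out. MYL12B, a regulatory light chain gene, had 132 and 175 reads in the RAME libraries, against 1052 and 424 in the DMSO libraries, or 95.9 and 101.8 CPM against 442.1 and 163.2 CPM. The means were 98.8 ± 4.18 CPM with RAME and 302.7 ± 197.3 CPM with DMSO (SD, n = 2 each). MYL12B was 3.06-fold lower with RAME (log2 fold change −1.61, SE 0.44, adjusted p = 0.0359, edgeR). The value rested in part on DMSO replicate 1, and without it the log2 fold change was −0.72 (adjusted p = 0.313). The call was also lost in limma-voom (adjusted p = 0.0643). MYL12A, its neighbour in the genome with a nearly identical protein, had 1242 and 1598 reads in the RAME libraries, against 3480 and 3882 in the DMSO libraries, or 902.1 and 929.5 CPM against 1463 and 1494 CPM. Its libraries agreed closely within each group and did not overlap between groups, but the change was smaller (log2 fold change −0.69, SE 0.26, adjusted p = 0.0946, edgeR). The last 400 bases of the MYL12A transcript matched MYL12B over 90 bases at 97.8% identity, so some of their reads can be shared.

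The log2 fold changes of the heavy chains were closer to 0. MYH9 had 101.0 and 112.3 CPM in the RAME libraries, against 111.4 and 170.1 CPM in the DMSO libraries (log2 fold change −0.40, SE 0.33). MYH10 had 69.0 and 81.4 CPM in the RAME libraries, against 87.4 and 98.9 CPM in the DMSO libraries (log2 fold change −0.31, SE 0.32). Neither passed the test (adjusted p = 0.441 and 0.549, edgeR). MYL6 had 9 and 8 reads in the RAME libraries, against 23 and 9 in the DMSO libraries (log2 fold change −0.23, SE 0.73). Its log2 fold change turned to 0.67 without DMSO replicate 1 and to 0.0047 without RAME replicate 2. MYL9, the smooth muscle type of regulatory light chain, had 3 reads in each group.

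The 3 linkers between filaments and the membrane, the ERM genes, all had log2 fold changes above 0. EZR, the gene of ezrin, had 256 and 426 reads in the RAME libraries, against 234 and 220 in the DMSO libraries, or 185.9 and 247.8 CPM against 98.3 and 84.7 CPM. The means were 216.9 ± 43.7 CPM with RAME and 91.5 ± 9.67 CPM with DMSO (SD, n = 2 each). EZR was 2.37-fold higher with RAME (log2 fold change 1.25, SE 0.32, adjusted p = 0.0274, edgeR), and the groups did not overlap. Its call was lost without DMSO replicate 1 (adjusted p = 0.0588), without DMSO replicate 2 (adjusted p = 0.0752) and without RAME replicate 2 (adjusted p = 0.11), with log2 fold changes of 1.03 to 1.44 over all leave-one-out fits. MSN, the gene of moesin and the most-read linker, had 4939 and 3443 reads in the RAME libraries, against 3484 and 6415 in the DMSO libraries, or 3587 and 2003 CPM against 1464 and 2469 CPM (log2 fold change 0.51, SE 0.34, adjusted p = 0.345, edgeR). Its groups overlapped. RDX, the gene of radixin, had 1141 and 1477 reads in the RAME libraries, against 1396 and 1556 in the DMSO libraries, or 828.7 and 859.1 CPM against 586.7 and 598.8 CPM (log2 fold change 0.51, SE 0.27, adjusted p = 0.219, edgeR). Its replicates lay close together and its groups did not overlap, but the gap did not pass the test.

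At focal contacts the 2 tested genes had opposite signs. VCL, the gene of vinculin, which reinforces the contact under tension, had 29 and 37 reads in the RAME libraries, against 110 and 138 in the DMSO libraries, or 21.1 and 21.5 CPM against 46.2 and 53.1 CPM. The groups did not overlap and the level was 2.33-fold lower with RAME, but VCL narrowly missed the threshold (log2 fold change −1.22, SE 0.40, adjusted p = 0.0627, edgeR). It passed with scaling by library size only (adjusted p = 0.0497) and with the replicate numbers crossed. The study had placed VCL among the genes it selected as lower on these same samples, which leaves its direction without independent evidence. TLN1, the gene of talin, which links integrins to actin, had 180.9 and 192.5 CPM in the RAME libraries, against 100.9 and 128.5 CPM in the DMSO libraries (log2 fold change 0.70, SE 0.31, adjusted p = 0.142, edgeR). ZYX, the gene of zyxin, had 4 reads in each group.

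None of the 3 capping protein genes passed the test, though both alpha subunit genes had negative log2 fold changes. CAPZA1 had 67.5 and 50.02 CPM in the RAME libraries, against 117.7 and 87.4 CPM in the DMSO libraries (log2 fold change −0.80, SE 0.34). CAPZA2 had 200.5 and 162.9 CPM in the RAME libraries, against 374.1 and 233.6 CPM in the DMSO libraries (log2 fold change −0.74, SE 0.33). For both the groups did not overlap, and neither passed the test (adjusted p = 0.133 and 0.15, edgeR). CAPZB had 62.5 and 51.2 CPM in the RAME libraries, against 56.7 and 51.2 CPM in the DMSO libraries, and its log2 fold change of 0.07 turned to −0.022 by library size only.

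Of the crosslinkers, the alpha-actinin genes were read most. ACTN4 had 375.5 and 482.8 CPM in the RAME libraries, against 483.3 and 533.8 CPM in the DMSO libraries (log2 fold change −0.24, SE 0.29, adjusted p = 0.605, edgeR). ACTN1 had 236.8 and 213.5 CPM in the RAME libraries, against 187.0 and 172.0 CPM in the DMSO libraries (log2 fold change 0.33, SE 0.30, adjusted p = 0.494, edgeR). Neither passed. The reads of ACTN4 cannot be told apart from those of CAPN12, a calpain gene on the opposite strand: CAPN12 was listed with 513 and 820 reads in the RAME libraries, against 1149 and 1379 in the DMSO libraries, beside 517 and 830, against 1150 and 1387, for ACTN4. The transcripts of the 2 genes overlapped over 694 bases in GENCODE 29, in opposite directions. FLNC, the muscle filamin, had 18 reads over both RAME libraries and 8 over both DMSO libraries and was not tested.

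Among the tropomyosins, which coat filaments and set what can bind them, 3 had log2 fold changes above 0 and none passed the test. TPM3 had 61.0 and 52.3 CPM in the RAME libraries, against 26.5 and 34.6 CPM in the DMSO libraries (log2 fold change 0.89, SE 0.38, adjusted p = 0.139, edgeR). Its pseudogene row TPM3P9 had 76 and 83 reads in the RAME libraries, against 43 and 51 in the DMSO libraries, beside 84 and 90, against 63 and 90, for TPM3, so reads may be split between them. TPM3P9 itself passed the test as higher (log2 fold change 1.45, SE 0.40, adjusted p = 0.0374, edgeR). TPM2 (log2 fold change 0.82) and TPM1 (1.17) did not overlap between the groups either, at 46 to 66 reads and at 8 to 21 reads a library, and for TPM1 the gap between RAME replicate 2 (5.82 CPM) and DMSO replicate 2 (5.77 CPM) was small.

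Of the transgelins and calponins, actin-binding proteins with smooth muscle forms (TAGLN, CNN1) and more widely expressed ones (TAGLN2, CNN2, CNN3), only CNN3 was tested. TAGLN had 1 read in each group, CNN1 had 1 read over both RAME libraries and none with DMSO, and TAGLN2 had 32 reads over both RAME libraries and 23 over both DMSO libraries. CNN3, a calponin of non-muscle cells, had 45.0 and 34.9 CPM in the RAME libraries, against 129.0 and 53.5 CPM in the DMSO libraries (log2 fold change −1.19, SE 0.44, adjusted p = 0.0944, edgeR). DMSO replicate 1 stood apart for CNN3 as for MYL12B.

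Of the genes that lengthen filaments, DIAPH1 alone was tested. DIAPH1, a formin, had 154.0 and 114.0 CPM in the RAME libraries, against 69.3 and 129.7 CPM in the DMSO libraries (log2 fold change 0.43, SE 0.37, adjusted p = 0.466, edgeR). VASP had 0 and 2 reads in the RAME libraries, against 27 and 1 in the DMSO libraries, so the difference lay in 1 library. Its relative ENAH had 5 and 15 reads in the RAME libraries, against 1 and 0 in the DMSO libraries. Its CPM ratio over the group sums was 32.2 (95% exact counting interval, 5.14 to 1333). ENAH was under the filter, and in a fit of all 11683 genes with a read it was called higher (adjusted p = 0.0272, edgeR). Intervals of this kind cover counting error only, not the spread between libraries, and PCR copies of 1 molecule may be counted as separate reads.

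**Figure D3:**
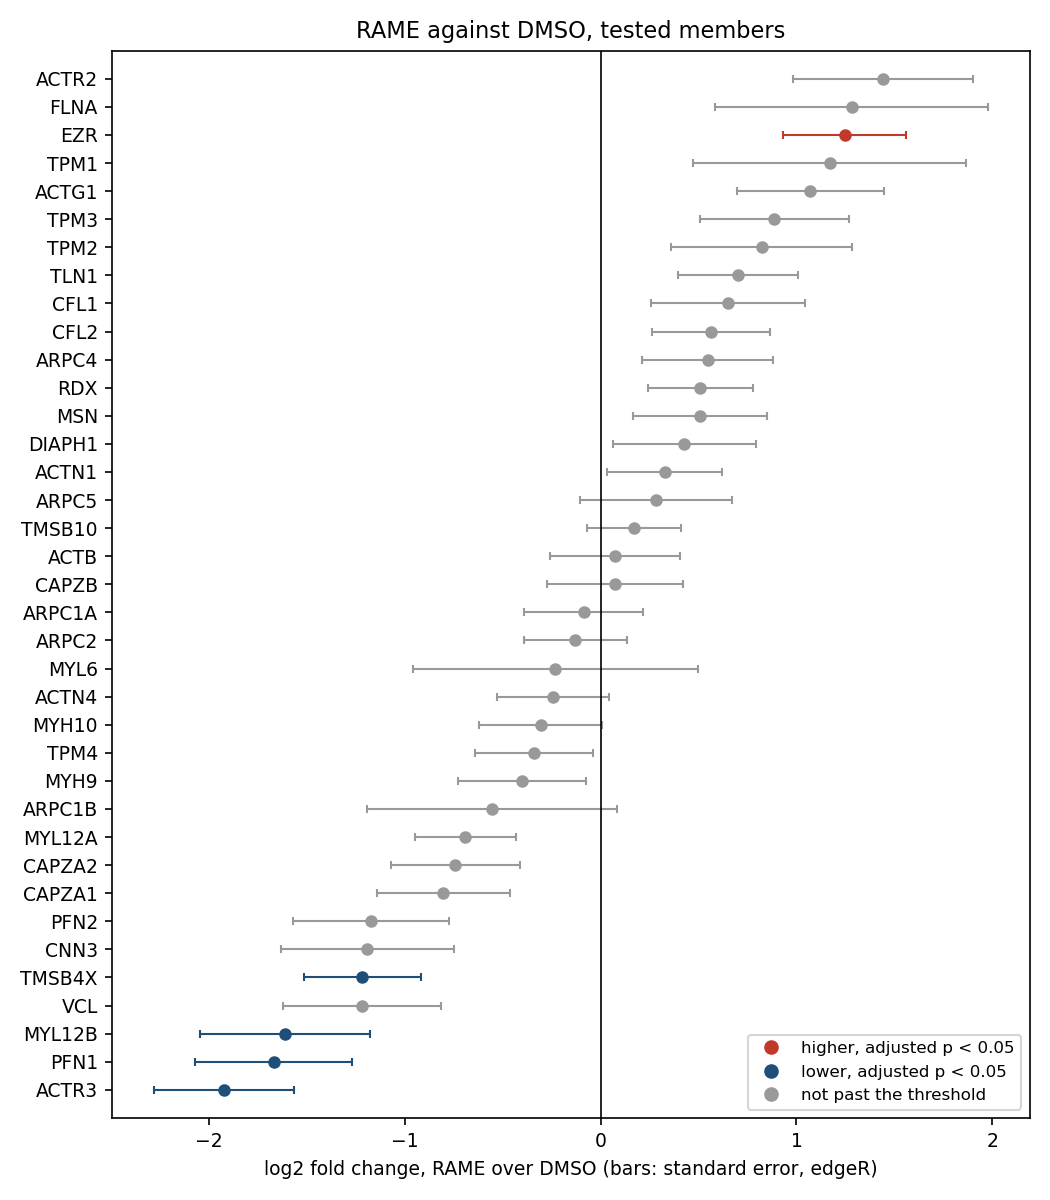
log2 fold change of RAME over DMSO with its standard error from edgeR for the 37 tested members, in order of size. The 4 genes past the threshold on the left are ACTR3, PFN1, MYL12B and TMSB4X, EZR is the only one past it on the right, and ACTR2, ACTG1, TPM1 and FLNA have log2 fold changes above 1 without passing. FLNA entered the test only through its RAME libraries.

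In each member called lower, DMSO replicate 1 lay above DMSO replicate 2. How often this held among all genes called lower was not tested. With 1 added to each CPM, DMSO replicate 1 exceeded DMSO replicate 2 by 2.70-fold for MYL12B, 2.01-fold for PFN1, 1.66-fold for ACTR3 and 1.54-fold for TMSB4X. Of the 37 tested members, 6 (16.2%) had over 2 times the level in DMSO replicate 1 and 0 had it in DMSO replicate 2. Over all genes tested the shares were 11.4% and 3.90%. The 6 members were MYL12B, PFN1, PFN2, CNN3, ARPC1B and MYL6, all with log2 fold changes below 0. A high DMSO replicate 1 also lowers the fold change by construction, so these 2 values are not independent. ACTR3 was the only member called without DMSO replicate 1. Over all genes, too, fewer were called without DMSO replicate 1 and more without DMSO replicate 2. Without DMSO replicate 1 the log2 fold changes were −0.72 for MYL12B, −1.08 for PFN1, −1.51 for ACTR3 and −0.88 for TMSB4X. Without DMSO replicate 2 they were −2.16, −2.09, −2.24 and −1.50. The part that any 1 library plays beyond these values was not tested.

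**Figure D4:**
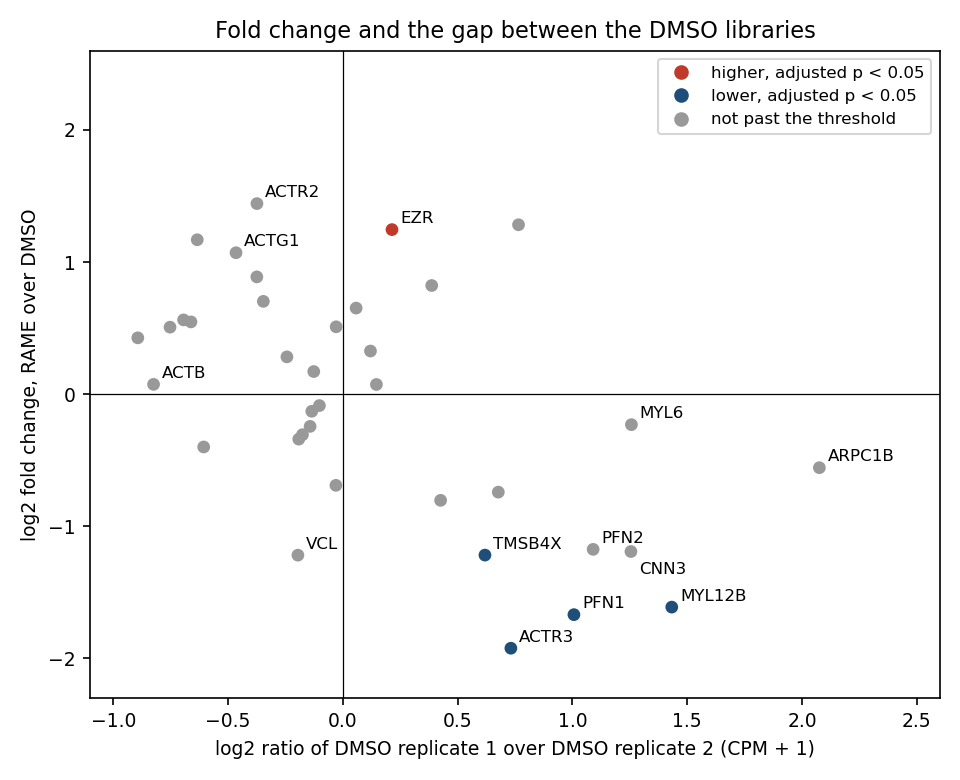
log2 fold change of RAME over DMSO against the log2 ratio of DMSO replicate 1 over DMSO replicate 2 for the 37 tested members. The 4 members past the threshold on the lower side lie to the right of 0 (ratios of 1.54 to 2.70), and the axes share DMSO replicate 1.

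**Figure D5:**
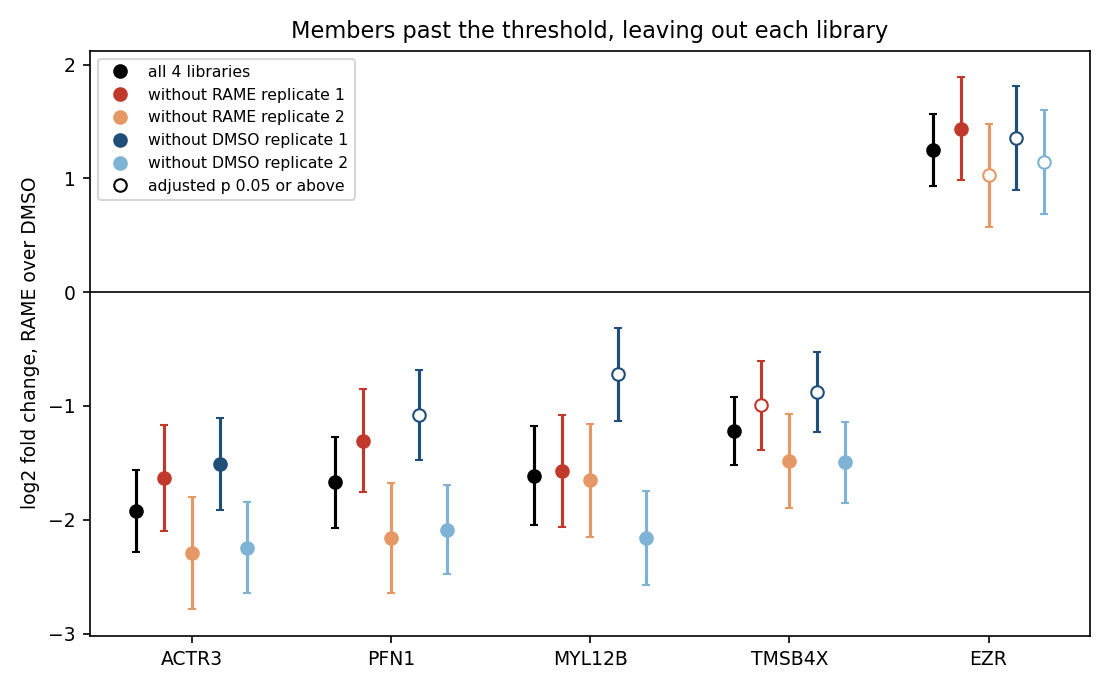
log2 fold change with its standard error for the 5 members past the threshold, from all 4 libraries and leaving out each in turn, with open points where the adjusted p was 0.05 or above. ACTR3 stays filled throughout, and MYL12B moves from −1.61 to −0.72 without DMSO replicate 1.

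Outside the 47 members, further genes of the same machinery were described from lists. Of 57 other actin regulators 32 were tested, and 1 was higher and 4 were lower, 15.6% in all beside 13.5% of all genes. FILIP1L, named for its likeness to a filamin-binding protein, had 60 and 99 reads in the RAME libraries, against 566 and 499 in the DMSO libraries (log2 fold change −2.08, SE 0.33, adjusted p = 0.00459, edgeR), and kept its call without any 1 library. ABI2, a subunit of the WAVE complex that switches on ARP2/3, had 7 and 23 reads in the RAME libraries, against 170 and 67 in the DMSO libraries (log2 fold change −2.36, SE 0.62, adjusted p = 0.0335, edgeR). INF2, a formin, had 76 and 65 reads in the RAME libraries, against 23 and 47 in the DMSO libraries (log2 fold change 1.73, SE 0.48, adjusted p = 0.0367, edgeR). Without DMSO replicate 1 neither call held (adjusted p = 0.171 for ABI2 and 0.115 for INF2), nor without RAME replicate 1 (0.0784 and 0.192). The other 2 lower genes had too few reads for the naming rule and were named after their values were seen. Both are counted in the 15.6%, but they passed the filter on low counts only through their DMSO libraries, where they are high. Being lower is therefore no evidence for either. WIPF1, which binds the ARP2/3 activator N-WASP, had 0 and 0 reads in the RAME libraries, against 50 and 14 in the DMSO libraries. It was at least 13.3-fold lower in CPM, with 3 reads over the RAME group taken as the floor, a bound for counting error only. Without DMSO replicate 1 that bound was 5.56-fold and the call was lost (adjusted p = 0.0702, edgeR). PLS1, a plastin, had 4 reads over both RAME libraries and 42 over both DMSO libraries, and its call was lost whichever library was left out. Of 36 other focal adhesion genes 15 were tested, and 1 was lower, 6.67% beside 13.5% of all genes. This was the adaptor CRKL, with 225 and 319 reads in the RAME libraries, against 832 and 1108 in the DMSO libraries (log2 fold change −1.15, SE 0.30, adjusted p = 0.0297, edgeR). It kept its call without DMSO replicate 1 and lost it without any of the other 3 libraries (adjusted p = 0.0587 to 0.158). FILIP1L, PLS1 and CRKL are in the list of lower genes that the study selected on these samples, and their direction is therefore no independent evidence.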

How the data were processed

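RNA of cells labelled SKOV-3 and given RAME or DMSO was turned into QuantSeq 3′ libraries and sequenced from a single end by the authors. Per the labels and the submitters' processing notes, reads were aligned with Bowtie2 and the notes name hg19. For the aligner's version, the annotation, the counting tool and the strand setting, the entry is: not given in the sources used here. Raw counts of reads for each gene were deposited, and they are the only values used here. The authors also deposited log2 normalized values per library and per group, a fold per gene and a p-value per gene of their own comparison, and none of these was used.

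Groups and replicate numbers were taken from the sample titles. Counts were fitted with edgeR 4.0.16 in R 4.3.3 across the whole table: filterByExpr (min.count 10, min.total.count 15), TMM factors, glmQLFit (robust) and glmQLFTest of RAME over DMSO, with Benjamini-Hochberg adjustment over 4517 genes and a threshold of 0.05. Common dispersion corresponded to a coefficient of variation of 29.9%. Each SE is the log2 fold change over the root of F. DESeq2 1.42.0, limma-voom (limma 3.58.1), other scalings and filters, a block on the replicate number and fits without 1 library were alternatives. Crossed replicate numbers, thinning to the smallest total, and adding ACTG1P20 reads to ACTG1 with CAPN12 removed were chosen after seeing the data. The fit was also tested on simulated counts in which 200 genes differed. The last 400 bases of 1 transcript per member were compared with GENCODE 29 by BLAST (at least 95% identity over 75 bases), and 6 of 47 members matched another gene. Intervals are exact binomial intervals at 95%.

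The members, gene lists and tests were chosen with earlier results of these data known. Full statistics were given to members past the threshold and to the 12 with the most reads. VCL was given them outside this rule. From each further list up to 4 called genes were named in order of p, if their mean reached 20 reads. SRF and its cofactor genes MKL1 and MKL2 were named outside that rule, and none of them was called. 1 further list is not reported here.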

Additional observations from a re-analysis of the deposited data

How the results depend on the processing

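The number of members called, 5 from all libraries, was 1 to 7 when 1 library was left out, 11 at an adjusted p under 0.1 (22.7% of all genes passed that mark), 1 at an adjusted p under 0.01, and 8 of 47 with no filter on reads. Over all genes, 612 calls became 323 to 857 with 1 library left out. The shares over all genes were 2.06% at an adjusted p under 0.01 and 6.74% of 11683 genes with no filter on reads. Most of those 11683 genes fall under the filter, unlike the members. Same-numbered libraries of the groups deviated in opposite directions (correlation −0.34 over all genes tested), and nothing in the labels says that the numbers pair the libraries. With the replicate number as a block, 4 members and 437 genes were called, and EZR was lost (adjusted p = 0.0835). With the numbers crossed, chosen after seeing the data, 19 members and 1787 genes were called. Values near 0 changed sign. ACTB was −0.019 and CAPZB −0.022 by library size only, and ARPC1A was 0.022 by upper quartile scaling. With 1 library left out the log2 fold change ranged over −0.28 to 0.54 for ACTB, −0.79 to 0.67 for MYL6, −0.22 to 0.039 for ARPC1A, −1.27 to 0.90 for ARPC1B, −0.018 to 0.54 for ARPC5 and −0.077 to 0.21 for CAPZB. ACTG1 was −1.19 with the reads of ACTG1P20 added. DESeq2, RLE factors, the filter on a mean of 20 reads and thinned libraries turned no member's direction. Depth limits the 10 untested members, which had 1 to 55 reads over all libraries.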
